A study of Mus musculus with 4 samples.

Results

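The gene set described here holds 37 genes of glycolysis and of the response to low oxygen, among 21937 features counted in 4 single-cell RNA libraries of the embryonic mouse forebrain. It was taken as a list of names: 17 glycolytic enzymes, 4 sugar and lactate transporters, 4 regulators of glycolytic flux and 12 hypoxia response genes. All 37 were found in the count matrices by gene symbol. The enzymes and the hypoxia response genes are read apart throughout.

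The tissue was the telencephalic midline around the cortical hem, the strip at the medial border of the cortex from which Wnt and BMP signals spread, a source of Cajal-Retzius neurons and a neighbour of the choroid plexus. Gof embryos were Lmx1aCre::Ai9::b-cat gof, and control embryos were Lmx1aCre::Ai9. Both genotypes thus carry Lmx1aCre, which acts in cells that have switched on the midline gene Lmx1a, and the Ai9 reporter, which makes tdTomato after Cre. In gof embryos the Cre also met an allele labelled as beta-catenin gain of function, meant to hold the canonical Wnt pathway active in the hem. The 4 groups were E11.5 gof, E11.5 control, E14.5 gof and E14.5 control. Each was 1 library, which pooled both hemispheres of 5 male embryos at E11.5 and of 3 male embryos at E14.5. With 1 pool per group there is no replicate, no test between groups is possible, and a difference between libraries cannot be told apart from a difference between pools or preparations. All intervals below are exact Poisson 95% intervals and cover counting error only.

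Glycolysis breaks glucose down to pyruvate, and lactate dehydrogenase turns pyruvate into lactate, which monocarboxylate transporters carry out of the cell. Neural progenitors of the early cortex are known to lean on this route, and differentiating neurons lean more on mitochondrial respiration. When oxygen is short, the Egln prolyl hydroxylases no longer mark HIF-1 alpha for destruction, and HIF-1 raises the transcription of glycolytic and other genes through short DNA elements with the core ACGTG or GCGTG.

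The upstream bases of 6 members are shown as examples of where the cores lie; all 6 hold ACGTG and were called in at least 1 comparison below, so they do not stand for the whole set. They are RefSeq sequences of GRCm38.p6, on the strand of the gene, and each was cut to the stretch that holds the matched cores. Capitals mark ACGTG or GCGTG on the printed strand, or CACGT or CACGC where the core lies on the other strand; CACGTG is a match on both strands that overlaps itself. A match is a description of the letters and not a site of binding.
Ldha, chr7:46845639-46845794, plus strand: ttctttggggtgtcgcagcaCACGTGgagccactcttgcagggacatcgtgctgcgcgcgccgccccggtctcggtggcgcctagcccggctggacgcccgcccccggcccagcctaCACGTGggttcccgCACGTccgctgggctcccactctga
Pgk1, chrX:106186930-106186993, plus strand: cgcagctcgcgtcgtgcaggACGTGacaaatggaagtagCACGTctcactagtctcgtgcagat
Hk2, chr6:82774482-82774700, minus strand: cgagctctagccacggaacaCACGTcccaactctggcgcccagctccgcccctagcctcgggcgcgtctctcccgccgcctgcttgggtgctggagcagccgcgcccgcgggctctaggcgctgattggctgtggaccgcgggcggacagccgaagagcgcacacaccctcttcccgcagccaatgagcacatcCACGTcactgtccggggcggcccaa
Slc16a3, chr11:120949020-120949066, plus strand: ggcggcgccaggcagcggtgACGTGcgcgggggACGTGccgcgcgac
Bnip3, chr7:138909517-138909643, minus strand: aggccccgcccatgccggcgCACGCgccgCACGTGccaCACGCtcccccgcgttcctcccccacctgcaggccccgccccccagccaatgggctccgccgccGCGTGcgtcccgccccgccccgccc
P4ha1, chr10:59323113-59323295, plus strand: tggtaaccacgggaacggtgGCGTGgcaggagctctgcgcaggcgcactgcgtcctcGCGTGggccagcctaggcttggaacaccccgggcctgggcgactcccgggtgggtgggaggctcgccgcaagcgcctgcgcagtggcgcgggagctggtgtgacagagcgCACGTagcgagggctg

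Within 250 bases upstream of an annotated start, ACGTG or GCGTG on either strand stood before 31 of the 35 members in the promoter table (88.57%); Slc2a3 and Ndrg1 are not in it. The same letters stood before 11226 of all 27025 genes in the table (41.54%), and before 5231 of the 8212 genes that reached 10 CPM, the UMIs of a gene scaled to a common total, in tdTomato-positive cells at E14.5 (63.7%). ACGTG alone was found before 21 members (60%), 4998 of all genes (18.49%) and 2142 of the expressed genes (26.08%). The median GC content of the window was 66.4% for members, 62% for the expressed genes and 52.8% for all genes, and its part in these shares was not tested. Among the enzymes, 14 of 17 held ACGTG or GCGTG, and among the hypoxia response genes 10 of 11 did. The members with no such core in the window were Gpi1, Tpi1, Eno2 and Mif, and Eno1 held GCGTG but no ACGTG.

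The libraries of kept cells held 7024 cells for E11.5 gof and 6510 for E11.5 control, with median UMIs per cell of 5644 in gof and 8172.5 in control, and 5317 cells for E14.5 gof and 6606 for E14.5 control, with medians of 14072 UMIs in gof and 12885.5 in control. Between 6 and 13 cell barcodes were shared by any pair of libraries. Cells with 2 or more tdTomato UMIs are called tdTomato-positive: 294 in E11.5 gof, 563 in E11.5 control, 1043 in E14.5 gof and 1110 in E14.5 control. Cells with 0 tdTomato UMIs numbered 6060 in E11.5 gof, 5242 in E11.5 control, 3528 in E14.5 gof and 4578 in E14.5 control, and a cell of the lineage whose reporter was not read falls among them. Ctnnb1, the gene of beta-catenin, was read at 214 CPM in E11.5 gof against 254 CPM in E11.5 control, and at 288 CPM in E14.5 gof against 310.0 CPM in E14.5 control; the sources used here do not give the altered part of the gene, so this checks nothing. Notum, a feedback target of Wnt signalling, stood at 12.6 CPM in E11.5 gof against 1.27 CPM in E11.5 control, and at 49.0 CPM in E14.5 gof against 0.462 CPM in E14.5 control.

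Each level is the sum of a gene's UMIs over a set of cells, scaled to CPM of all UMIs in that set. Log2 ratios are of CPM with 1 added to each value, and the interval of a ratio runs between the farthest ends of the 2 intervals. A gene is measured in a comparison where either set reaches 10 CPM, and it is called higher or lower where the sets differ by at least 1.5-fold with separate intervals. In the 6 comparisons of gof with control (whole library, tdTomato-positive cells and cells with 0 tdTomato UMIs at each age), 19 of the 37 members were called at least once, 26 were measured in all 6, and Pfkfb4, P4ha2 and Ndrg1 stayed under 10 CPM in all 6. In whole libraries and mixed sets of cells, fewer cells of a type and less RNA per cell cannot be told apart.

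In tdTomato-positive cells at E14.5, more glycolytic enzymes were called higher than lower in gof over control cells, and the hypoxia response genes had 1 call in each direction. All 17 enzymes were measured: 7 were called higher, against 6.84% of all 10239 genes measured, and 3 were called lower, against 16.6%. The log2 ratio was above 0 for 11 enzymes and below 0 for 6. The median log2 ratio of the enzymes was 0.49, and that of all measured genes was −0.12. Of 10 measured hypoxia response genes, 1 was called higher and 1 lower, with a median of 0.02. The difference between the 2 groups of genes was not tested. Over all 37 members 12 were called higher and 5 lower; with cells of 1 tdTomato UMI included, 4 were higher and 2 lower and the enzyme median was 0.34. The summed level of the 17 enzymes was 4571 CPM (4542 to 4601) in gof cells against 3177 CPM (3153 to 3202) in control cells, and that of the 12 hypoxia response genes was 1385 CPM (1368 to 1401) in gof cells against 1392 CPM (1376 to 1409) in control cells. A sum gives most weight to its most abundant genes. Bnip3, Vegfa, P4ha1, Ddit4, Hif1a and Ankrd37, with levels given below, make up a small part of the hypoxia sum. P4ha2 and Ndrg1 stayed under 10 CPM, so most of the sum lies in Egln1, Egln3, Higd1a and Mif, also in E11.5 tdTomato-positive cells. The hypoxia sum therefore does not stand for each of its genes.

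**Figure D1:**
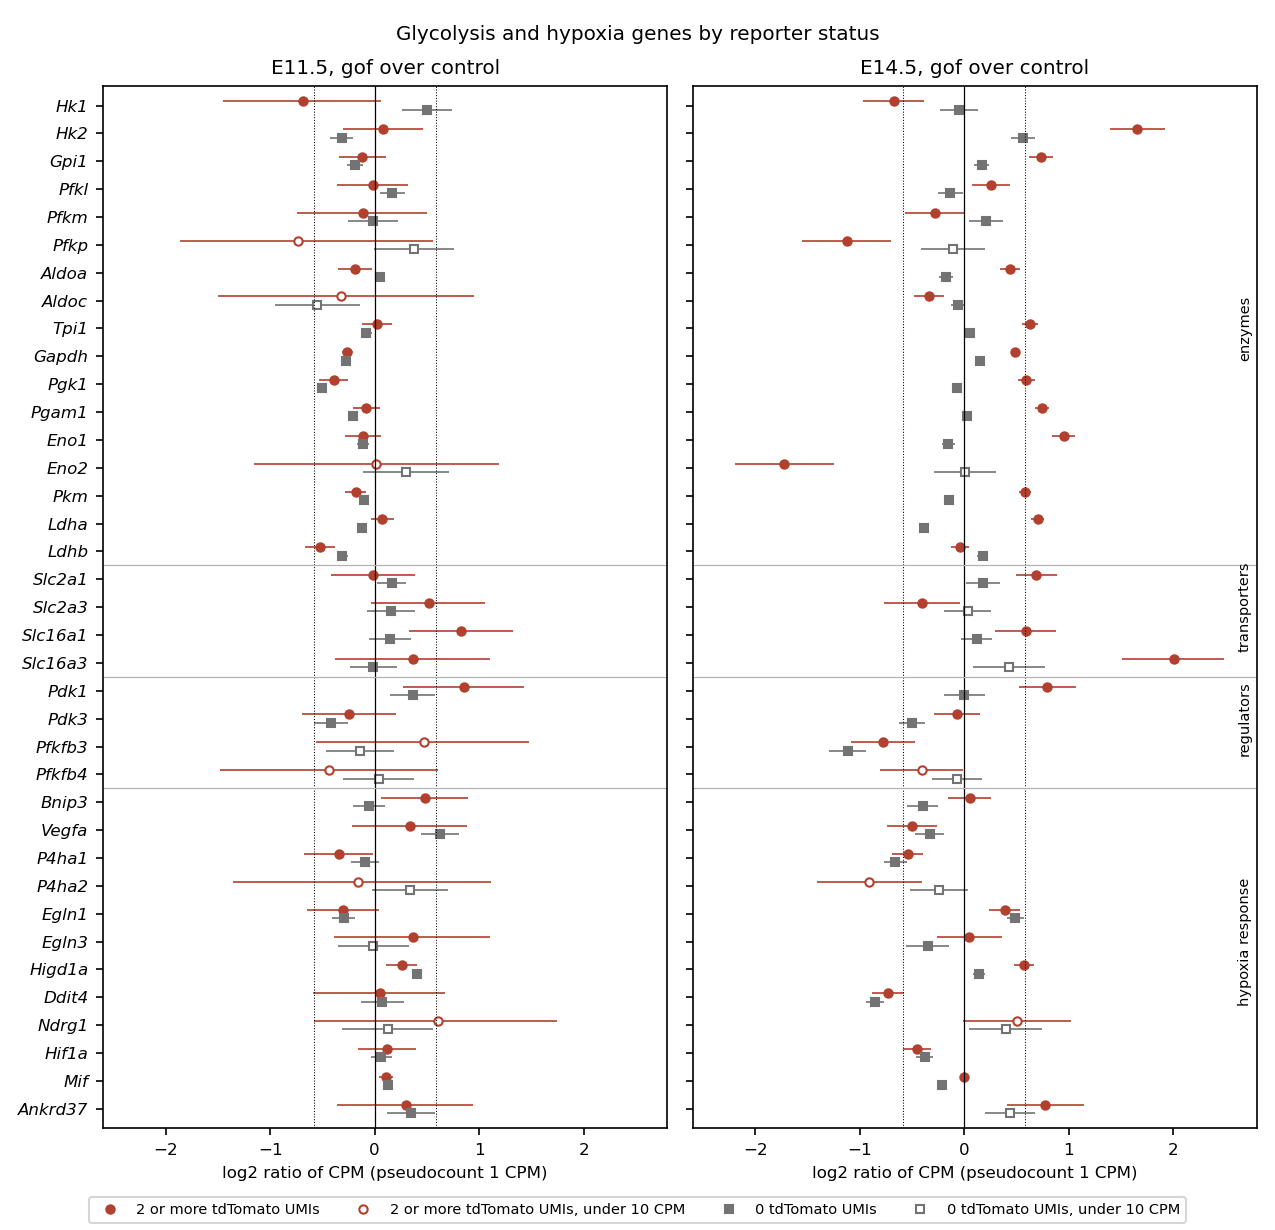
Log2 ratio of CPM, gof over control, for each of the 37 genes at E11.5 (left) and E14.5 (right), in cells with 2 or more tdTomato UMIs (circles) and 0 UMIs (squares). Open symbols are genes under 10 CPM in both libraries, bars run between the farthest ends of the 95% Poisson intervals, and dotted lines mark 1.5-fold. At E14.5 the circles of 11 of 17 enzymes lie right of 0, with Hk2 at 1.66 and Eno1 at 0.95, whereas at E11.5 no enzyme passes 1.5-fold with separate intervals.

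At the first step of the pathway, the hexokinases differed in both directions at E14.5. Hk2, the hexokinase of growing tissues, had 41.7 CPM in gof tdTomato-positive cells against 12.5 CPM in control ones (log2 ratio 1.66, 1.39 to 1.92), and at E11.5 it had 40.4 CPM in gof cells against 38.1 CPM in control cells. Hk1, the hexokinase of most adult tissues and of neurons, had 13.6 CPM in gof cells against 22.4 CPM in control cells at E14.5 (−0.68, −0.97 to −0.38), and 7.25 CPM in gof cells against 12.3 CPM in control cells at E11.5, where the intervals overlapped. Hk2 was thus called higher and Hk1 lower in the E14.5 lineage, and neither was called at E11.5. In cells with 0 tdTomato UMIs at E14.5, Hk2 had 51.6 CPM in gof against 34.6 CPM in control cells (0.56), just under the limit of 1.5-fold, and Hk1 had 14.8 CPM in gof against 15.4 CPM in control cells.

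Of the enzymes that lead from glucose 6-phosphate to the triose phosphates, Gpi1 and Tpi1 were called higher at E14.5, and Pfkp, given with the other enzymes called lower, was lower. Gpi1, which turns glucose 6-phosphate into fructose 6-phosphate, had 151 CPM in gof against 90.5 CPM in control tdTomato-positive cells at E14.5, and 114 CPM in gof against 123 CPM in control cells at E11.5. Tpi1, which interconverts the 2 triose phosphates, had 324 CPM in gof against 209 CPM in control cells at E14.5, and 291 CPM in gof against 286 CPM in control cells at E11.5. Both were called higher at E14.5 and not at E11.5, with log2 ratios of 0.73 for Gpi1 and 0.63 for Tpi1 at E14.5. Aldoa, the aldolase that yields the triose phosphates, had 205 CPM in gof against 151 CPM in control cells at E14.5 (0.44) and 221 CPM in gof against 251 CPM in control cells at E11.5, and was not called. Aldoc, the aldolase of astrocytes and radial glia, had 72.1 CPM in gof against 91.3 CPM in control cells at E14.5 (−0.34) and was not called either.

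Of the enzymes after the triose phosphates, 4 were called higher and 1, Eno2, lower. Pgk1, which makes the first ATP of the pathway, had 303 CPM in gof against 201 CPM in control tdTomato-positive cells at E14.5 (0.59, 0.51 to 0.67), and 276 CPM in gof against 362 CPM in control cells at E11.5. Pgam1, the phosphoglycerate mutase, had 451 CPM in gof against 269 CPM in control cells at E14.5 (0.74), and 345 CPM in gof against 365 CPM in control cells at E11.5. Eno1, the common enolase, had 189.7 CPM in gof against 97.7 CPM in control cells at E14.5 (0.95, 0.84 to 1.06), and 193 CPM in gof against 209 CPM in control cells at E11.5. These 3 were called higher at E14.5, and at E11.5 each was lower in gof than in control cells by less than 1.5-fold. Ldha, which makes lactate, had 543 CPM in gof against 334 CPM in control cells at E14.5 (0.70, 0.64 to 0.76), and 471 CPM in gof against 447 CPM in control cells at E11.5. Ldhb, the other lactate dehydrogenase subunit, had 218 CPM in gof against 224 CPM in control cells at E14.5, and 253 CPM in gof against 364 CPM in control cells at E11.5 (−0.52). The A subunit was therefore called higher in the E14.5 lineage and the B subunit was not, with intervals of the log2 ratio that do not meet (0.64 to 0.76 for Ldha and −0.12 to 0.05 for Ldhb).

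Gapdh and Pkm, the glyceraldehyde phosphate dehydrogenase and the pyruvate kinase, stayed under the limit of 1.5-fold. Gapdh had 1413 CPM in gof against 1007 CPM in control tdTomato-positive cells at E14.5 (0.49), and 2133 CPM in gof against 2556 CPM in control cells at E11.5. Pkm had 569 CPM in gof against 381 CPM in control cells at E14.5 (0.58), and 593 CPM in gof against 673 CPM in control cells at E11.5. For both genes the intervals of the 2 genotypes were separate at both ages, with gof higher at E14.5 and lower at E11.5.

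The enzymes called lower, beside Hk1, were the platelet-type phosphofructokinase Pfkp and the neuronal enolase Eno2. Pfkp had 4.55 CPM in gof against 11.1 CPM in control tdTomato-positive cells at E14.5 (−1.12, −1.55 to −0.70), and 1.12 CPM in gof against 2.52 CPM in control cells at E11.5. Eno2 had 2.60 CPM in gof against 10.9 CPM in control cells at E14.5 (−1.72, −2.19 to −1.25), and 2.23 CPM in gof against 2.20 CPM in control cells at E11.5. Both were near the 10 CPM limit even where they were high. The other phosphofructokinases, Pfkl and Pfkm, had 52.6 and 16.8 CPM in gof cells against 43.9 and 20.6 CPM in control cells at E14.5, and neither was called.

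Of the transporters, 3 of 4 were called higher in gof tdTomato-positive cells at E14.5. Slc2a1, the glucose transporter GLUT1, had 51.9 CPM in gof against 31.9 CPM in control cells at E14.5 (0.69, 0.49 to 0.88), and 34.9 CPM in gof against 35.2 CPM in control cells at E11.5. Slc16a1, the lactate carrier MCT1, had 20.99 CPM in gof against 13.7 CPM in control cells at E14.5 (0.59), and 28.7 CPM in gof against 15.7 CPM in control cells at E11.5 (0.83, 0.33 to 1.32). Slc16a3, the lactate exporter MCT4, had 11.04 CPM in gof against 2.01 CPM in control cells at E14.5 (2.001, 1.51 to 2.48), and 10.3 CPM in gof against 7.77 CPM in control cells at E11.5. Slc16a3 had the highest log2 ratio of all members in this comparison, and its gof level at E14.5 was close to its levels at E11.5. Slc16a1 was called at both ages. Slc2a3, the glucose transporter GLUT3, had 8.99 CPM in gof against 12.2 CPM in control cells at E14.5 and was not called.

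The flux regulators did not move together. Pdk1, the kinase that shuts pyruvate dehydrogenase and keeps pyruvate out of mitochondria, had 27.1 CPM in gof against 15.2 CPM in control tdTomato-positive cells at E14.5 (0.79, 0.52 to 1.07), and 20.9 CPM in gof against 11.1 CPM in control cells at E11.5 (0.85, 0.27 to 1.43). Pfkfb3, whose product activates phosphofructokinase, had 11.7 CPM in gof against 20.8 CPM in control cells at E14.5 (−0.78), and 4.46 CPM in gof against 2.94 CPM in control cells at E11.5. Pdk1 was called higher at both ages and Pfkfb3 lower at E14.5. Pdk3 had 31.0 CPM in gof against 32.6 CPM in control cells at E14.5, and Pfkfb4 stayed under 10 CPM.

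**Figure D2:**
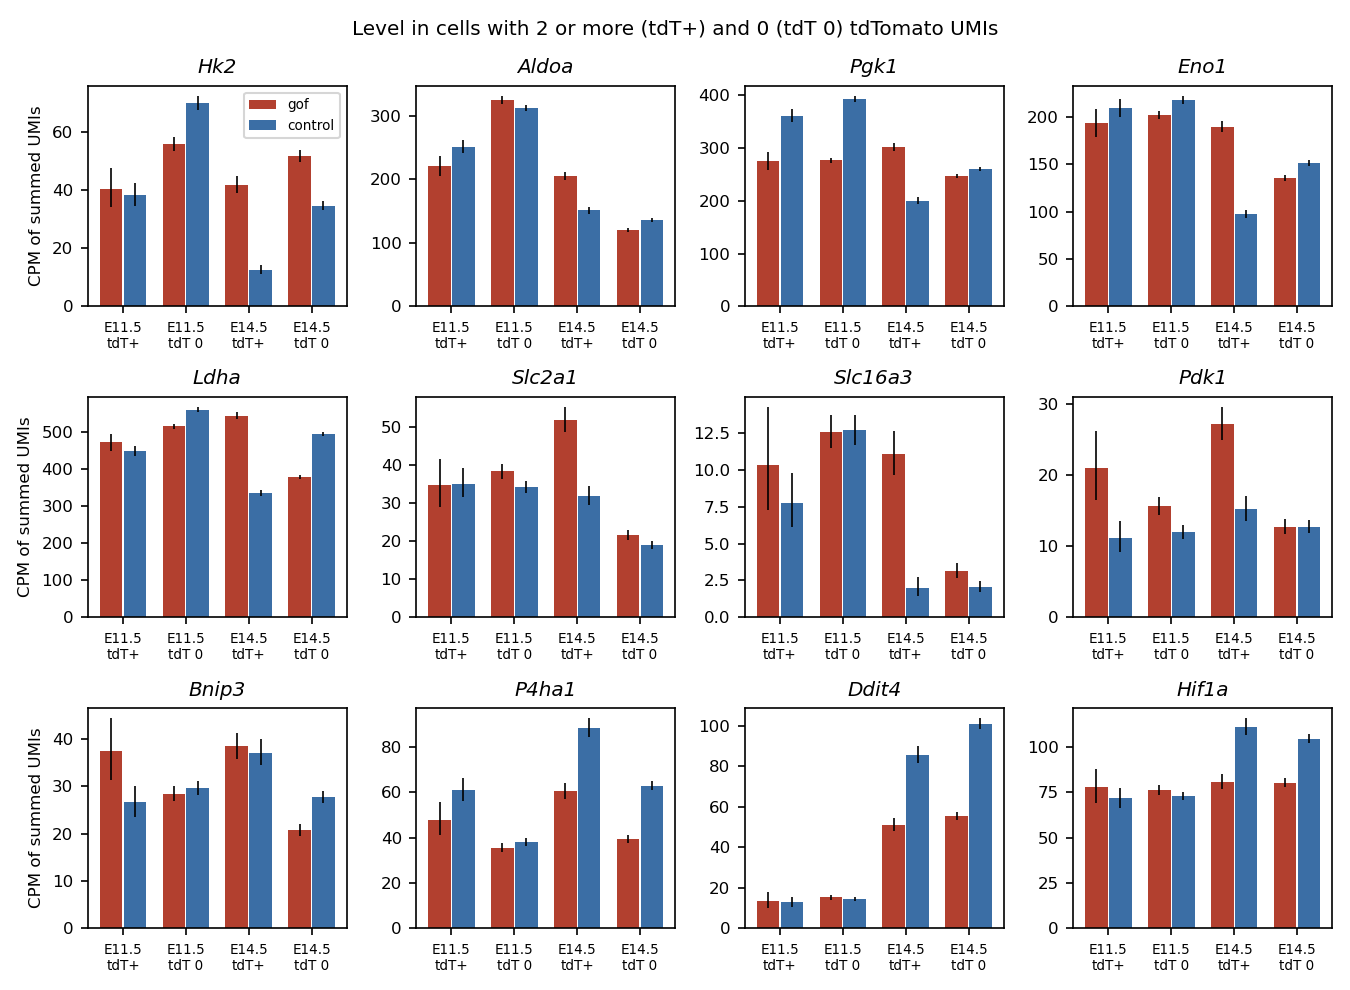
CPM of 12 genes in the 4 libraries, in tdTomato-positive cells (tdT+) and cells with 0 tdTomato UMIs (tdT 0), gof bars left of control bars; error bars are 95% Poisson intervals and each panel has its own linear axis from 0. For Hk2, Eno1 and Ldha the control tdT+ bar at E14.5 is the lowest of its panel, and for Ddit4 the gof bars at E14.5 stand below the control bars in both sets of cells.

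Among the hypoxia response genes, the E14.5 lineage gave no common direction. Ankrd37, a HIF target of little known function, had 13.7 CPM in gof against 7.58 CPM in control tdTomato-positive cells (0.78, 0.41 to 1.15), and 13.7 CPM in gof against 10.9 CPM in control cells at E11.5. Ddit4, an inhibitor of mTORC1 signalling, had 51.3 CPM in gof against 85.7 CPM in control cells at E14.5 (−0.73, −0.89 to −0.57), and 13.4 CPM in gof against 12.9 CPM in control cells at E11.5. Bnip3, a mitophagy receptor and classical HIF target, had 38.4 CPM in gof against 37.1 CPM in control cells at E14.5, and 37.4 CPM in gof against 26.6 CPM in control cells at E11.5. Of the 10 measured, Ankrd37 and Ddit4 passed the call rule, in opposite directions. Vegfa, the blood vessel growth factor, had 22.8 CPM in gof against 32.7 CPM in control cells at E14.5 (−0.50), and 19.8 CPM in gof against 15.4 CPM in control cells at E11.5. P4ha1, a collagen prolyl hydroxylase, had 60.5 CPM in gof against 88.4 CPM in control cells at E14.5 (−0.54), and 48.0 CPM in gof against 61.0 CPM in control cells at E11.5. Hif1a, the oxygen-regulated HIF subunit, which is controlled mainly through its protein, had 80.7 CPM in gof against 111 CPM in control cells at E14.5 (−0.45), and 77.8 CPM in gof against 71.5 CPM in control cells at E11.5. These 3 had separate intervals at E14.5, with gof below control, but differed by less than 1.5-fold. Of the rest, Egln1 and Higd1a had log2 ratios of 0.39 and 0.57, Egln3 0.05, Mif 0.00, and P4ha2 and Ndrg1 stayed under 10 CPM.

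Other measures differed between the same cells. Of 13 measured genes on a list of dissociation and heat shock genes, 9 were lower in gof tdTomato-positive cells at E14.5, with a median log2 ratio of −0.96; Hspa1a had 5.10 CPM in gof against 31.1 CPM in control cells and Fos 66.2 CPM in gof against 284 CPM in control cells. At E11.5 the same list went the other way, with 4 of 10 measured genes higher and a median of 0.51. Of 10 measured genes of the integrated stress response, 3 were higher in the E14.5 lineage (Asns, Psat1 and Slc7a11), and of 12 proliferation genes 2 were higher (Ccnb1 and Ube2c) with a median of 0.28. None of 17 genes of oxidative phosphorylation was called, and their median was 0.20. Median UMIs per tdTomato-positive cell were 15904 in gof against 13621 in control at E14.5. The part of handling, stress, cycling and depth in the glycolytic difference was not tested.

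The mix of cell types in the lineage differed as well. Cells passing a marker gate for Cajal-Retzius neurons made up 12.7% of tdTomato-positive cells in E14.5 gof against 32.6% in E14.5 control, and radial glia 25.3% in gof against 7.21% in control. In an alternative added after seeing the data, gof cells were reweighted to the share of UMIs each type held among control tdTomato-positive cells. The enzymes then summed to 4549 CPM in gof against 3181 CPM in control cells, with a median log2 ratio of 0.47. The hypoxia response genes had a median of 0.02. Cells of the same gate differed in marker levels between genotypes, as given below, so equal shares do not make the cells alike. Without the cells of the choroid plexus and hem gates, also added later, the medians were 0.49 for the enzymes and −0.12 for the hypoxia response genes. Cajal-Retzius cells, 132 in gof and 362 in control, stayed in that set. It therefore does not hold the mix of types equal, and the part of the mix was not tested. The cells outside the non-neural gates gave medians of 0.48 for the enzymes and 0.01 for the hypoxia response genes.

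Further genes of the pathways, from lists of other members, showed few calls in the E14.5 lineage. Of all 10239 measured genes 6.84% were higher and 16.6% lower there, with a median log2 ratio of −0.12. Of 13 measured genes of glycolysis and pyruvate use, Bsg, the chaperone of the lactate carriers, was higher at 758 CPM in gof against 453 CPM in control tdTomato-positive cells (0.74), and the sugar transporter Slc2a12 was lower at 9.94 CPM in gof against 15.9 CPM in control cells (−0.62); the median was −0.00. Next in order were Pdha1 (0.45), a subunit of pyruvate dehydrogenase, and Gpd2 (0.36) at the upper end, and Pdp1 (−0.42) and Pgm1 (−0.39) at the lower end. Of 21 measured hypoxia and HIF genes outside the set, none was higher and 3 were lower, with a median of −0.22: the carbonic anhydrase Car12 had 10.1 CPM in gof against 40.8 CPM in control cells (−1.91), Bhlhe40 had 7.74 CPM in gof against 14.1 CPM in control cells (−0.78), and Vhl, the recognition subunit that targets HIF for destruction, had 17.1 CPM in gof against 26.5 CPM in control cells (−0.60). The highest ratios on that list belonged to Tfrc (0.56), Bnip3l (0.35) and Egln2 (0.31), none of them called.

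In cells with 0 tdTomato UMIs at E14.5 no enzyme was called, against 2.11% of 9473 genes higher and 7.28% lower, and the enzyme median was −0.05 with −0.08 for all genes. Ldha had 378 CPM in gof against 495 CPM in control cells (−0.39), Eno1 136 CPM in gof against 151 CPM in control cells, and Pgk1 247 CPM in gof against 260.1 CPM in control cells. The 3 members that were called were all lower in gof cells. Pfkfb3 had 11.1 CPM in gof against 25.2 CPM in control cells (−1.12, −1.29 to −0.94). P4ha1 had 39.4 CPM in gof against 62.8 CPM in control cells (−0.66), and Ddit4 had 55.5 CPM in gof against 101 CPM in control cells (−0.85). The hypoxia median was −0.35. Pfkfb3 and Ddit4 were thus called lower in gof both in tdTomato-positive cells and in cells with 0 tdTomato UMIs. Of these 2 sets, only the tdTomato-positive cells had calls on the enzymes. The difference between the 2 sets of cells was not tested. Of 10 measured dissociation and heat shock genes, 3 were lower in gof among cells with 0 tdTomato UMIs (median −0.53). Over all kept cells 7 of 11 were lower (−0.66). Their part in these calls was not tested. Over all kept cells at E14.5, Hk2 was the 1 member called higher (3.04% of all 9751 genes), at 49.4 CPM in gof against 29.2 CPM in control, and Pfkfb3, P4ha1 and Ddit4 were lower (8.1% of all genes); the medians were 0.10 for enzymes and −0.21 for hypoxia response genes.

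At E11.5 few members of the set were called. Over all kept cells Vegfa was the 1 member called higher, at 24.6 CPM in gof against 15.7 CPM in control (0.61, 0.45 to 0.77), against 4.39% of all 8413 genes higher and 4.01% lower. In cells with 0 tdTomato UMIs Vegfa was again the 1 call, at 25.02 CPM in gof against 15.9 CPM in control cells, against 4.33% of genes higher and 3.77% lower. In tdTomato-positive cells Slc16a1 and Pdk1 were called higher, against 4.68% of 8693 genes, and none was lower, against 5.66%. The enzyme medians were −0.11, −0.12 and −0.11 over all, tdTomato-positive and 0-UMI cells, beside medians of all genes of −0.11, −0.08 and −0.10. The hypoxia medians were 0.07, 0.19 and 0.07. Summed over the 17 enzymes, E11.5 tdTomato-positive cells had 5004 CPM (4931 to 5078) in gof against 5757 CPM (5709 to 5806) in control, which is the opposite order to E14.5. The 12 hypoxia response genes summed to 1867 CPM (1822 to 1912) in these gof cells against 1719 CPM (1693 to 1745) in control cells. These tdTomato-positive sets were unlike in type and depth. The hem gate held 17.3% of gof cells against 33.7% of control cells. Cells of no gate made up 32.7% in gof against 7.64% in control. Median UMIs per cell were 9688 in gof against 13508 in control. With gof cells reweighted to the control mix as at E14.5, the enzymes summed to 5002 CPM in gof against 5762 CPM in control. Their median log2 ratio was then −0.17. Whether the enzyme sums differ between ages was not tested. Over all kept E11.5 cells the hypoxia sum was 2103 CPM (2090 to 2116) in gof against 1877 CPM (1867 to 1888) in control. The gate of radial glia and neuroepithelium held 27.7% of kept cells in gof against 45.5% in control. Cells of no gate made up 30.3% in gof against 12.9% in control. Over all kept cells 4 of 10 dissociation and heat shock genes were higher in gof (median 0.55), and among 0-UMI cells 5 of 10 (0.59). The median of 12 proliferation genes was −0.24 over all kept cells. The part of these measures was not tested.

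**Figure D3:**
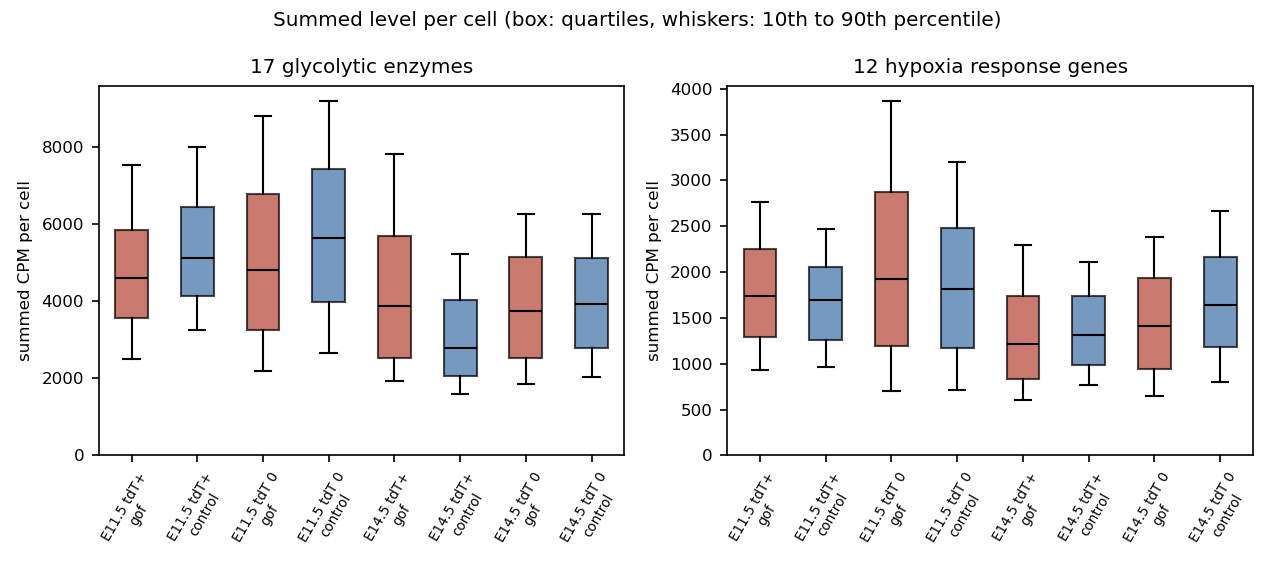
Summed CPM per cell of the 17 enzymes (left) and the 12 hypoxia response genes (right), by age, reporter status and genotype, gof left of control; red is gof and blue control, boxes span the quartiles with the median as a line and whiskers run between the 10th and 90th percentiles. Among E14.5 tdTomato-positive cells the median of enzymes is 3869.8 CPM in gof and 2789.7 CPM in control, the lowest of the 8 sets, and the boxes of gof and control overlap in every pair.

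The 2 sets of cells within a library share their preparation and sequencing. In E14.5 gof, tdTomato-positive cells were higher than cells with 0 UMIs for Aldoa (205 against 120.4 CPM), Slc2a1 (51.9 against 21.6 CPM), Slc16a3 (11.04 against 3.13 CPM), Pdk1 (27.1 against 12.7 CPM), Bnip3 (38.4 against 20.8 CPM) and P4ha1 (60.5 against 39.4 CPM), where 12.1% of all 9753 genes were higher. Aldoc was lower (72.1 against 127 CPM), where 5.82% of genes were lower. In E14.5 control, tdTomato-positive cells were lower than cells with 0 UMIs for Hk2 (12.5 against 34.6 CPM), Eno1 (97.7 against 151 CPM), Pkm (381 against 588 CPM) and Slc16a1 (13.7 against 22.6 CPM), where 5.44% of 10135 genes were lower, and higher for Pfkp, Eno2 and Slc2a1, where 13.6% were higher. The enzyme medians were 0.29 in gof and −0.19 in control, beside −0.02 in gof and 0.03 in control for all genes. Proliferation genes were lower in tdTomato-positive cells for 3 of 12 in gof (median −0.49) and 8 of 12 in control (median −0.73), and dissociation and heat shock genes were higher for 3 of 10 in gof (0.34) and 8 of 13 in control (0.68). With the share of Cajal-Retzius cells given above, their part in these values was not tested. Slc2a1 was thus called higher in the lineage in both genotypes, and the other calls were of different genes. At E11.5, Slc2a3, Slc16a1 and Egln3 were higher and Hk1 lower in the gof lineage (9.32% and 4.19% of all genes), and P4ha1 was higher and Hk2 and Slc16a3 lower in the control lineage (6.12% and 2.41%).

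The differences were then read within cell types. A cell entered a type where it had UMIs of at least 3 of the type's markers (2 of 3 for intermediate progenitors) and at least 5 marker UMIs, and types with fewer than 50 cells in either library were left out. Markers held back from the gates were at least 2-fold above all other cells for 6 of 6 hem markers in both E14.5 libraries and for 3 of 4 choroid plexus markers in gof against 4 of 4 in control. For radial glia and neuroepithelium it was 3 of 5 in both E14.5 libraries and 0 of 5 in both E11.5 libraries, so at E11.5 these markers do not bear out the name of the gate. None of the 37 members is a gate marker.

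Across types the summed enzymes were high in progenitors and low in neurons in all 4 libraries. At E14.5 gof they ran from 2342 CPM in Cajal-Retzius cells through 2658 CPM in projection neurons, 3793 CPM in intermediate progenitors, 5187 CPM in radial glia and 6555 CPM in the choroid plexus gate to 7101 CPM in the hem gate. At E14.5 control the order ran from 2200.5 CPM in Cajal-Retzius cells through 2725 CPM in projection neurons, 3121 CPM in the choroid plexus gate, 3577 CPM in intermediate progenitors and 4445 CPM in the hem gate to 4886 CPM in radial glia. Neighbours in both orders had separate counting intervals, except that projection neurons and the other neurons overlapped. At E11.5 the gate of radial glia and neuroepithelium stood highest among the types compared, with 6526 CPM in gof cells and 6758 CPM in control cells, and erythroid cells lowest, with 760 CPM in gof cells and 832 CPM in control cells, where haemoglobin takes most of the UMIs. In radial glia over all other kept cells, the same 6 enzymes (Hk2, Aldoc, Gapdh, Pgam1, Eno1 and Ldha) were called higher in E14.5 gof and E14.5 control, where 10.7% and 10.9% of all genes were higher. In Cajal-Retzius cells 10 enzymes were lower in E14.5 gof and 9 in E14.5 control, where 17.8% and 13.6% of all genes were lower.

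**Figure D4:**
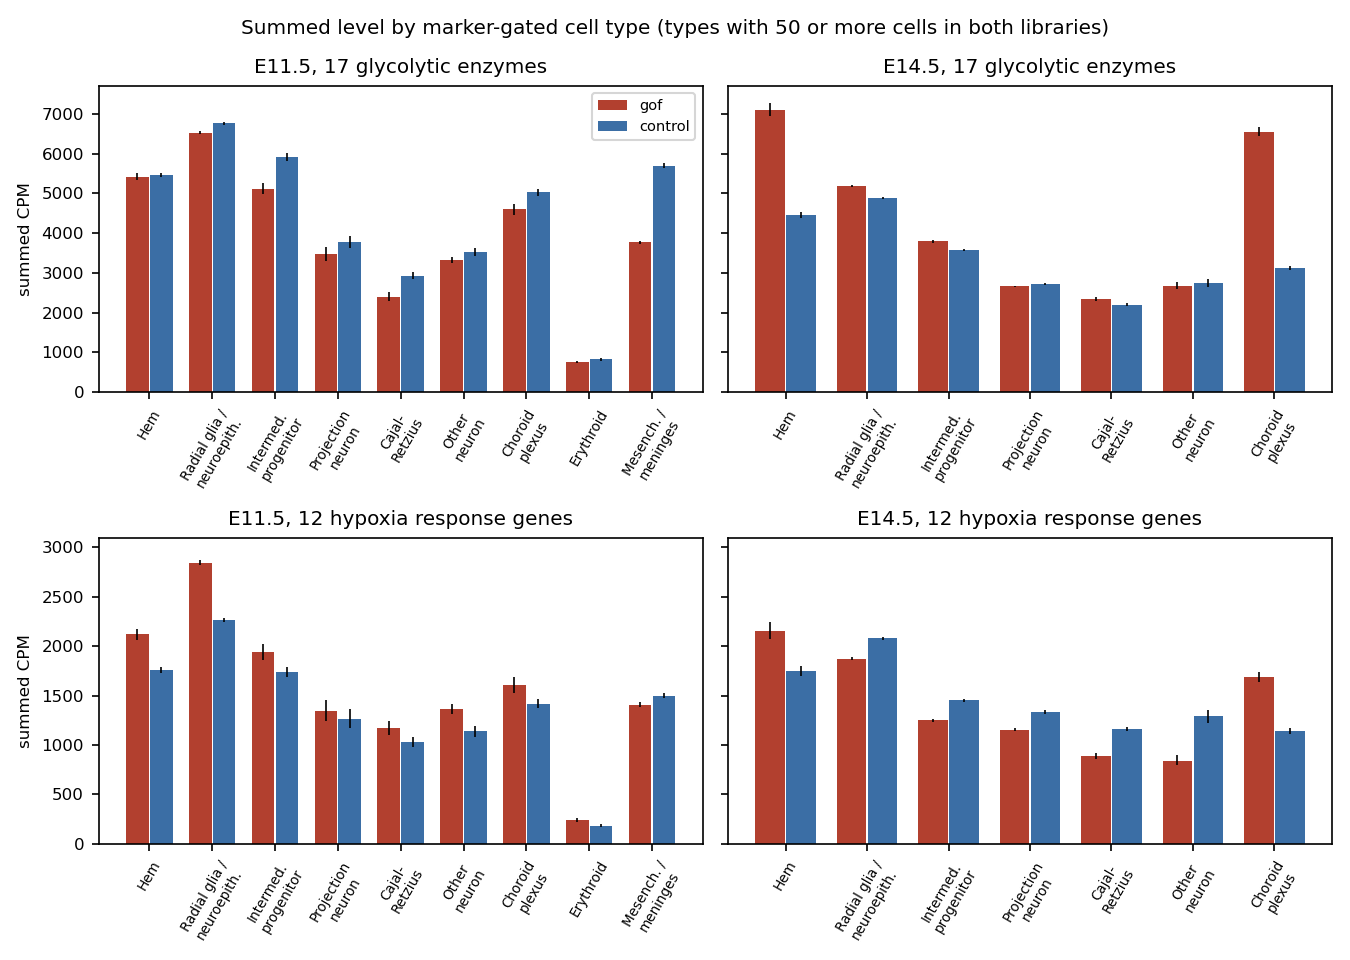
Summed CPM of the 17 enzymes (top) and the 12 hypoxia response genes (bottom) by marker-gated type at E11.5 (left) and E14.5 (right), gof left of control, with 95% Poisson intervals; axes start at 0. At E14.5 the gof bars of the hem (7101 CPM) and choroid plexus (6555 CPM) gates stand above the control bars (4445 and 3121 CPM), and in the other E14.5 types the bars of a pair are closer.

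The widest difference between genotypes was in the choroid plexus gate at E14.5, with 95 gof and 210 control cells. Of the 17 enzymes 12 were called higher (10.7% of all 10155 genes) and 3 lower (20%), with a median log2 ratio of 1.06 beside −0.09 for all genes. Ldha had 924 CPM in gof against 253 CPM in control cells (1.86, 1.72 to 2.01), Eno1 368 CPM in gof against 111 CPM in control cells (1.72), and Pdk1 80.7 CPM in gof against 18.6 CPM in control cells (2.06). The member with the highest ratio was Slc16a3, with 21.9 CPM in gof against 1.86 CPM in control cells from 52 and 9 UMIs (3.00, 1.93 to 4.002), and the lowest was Pfkp, with 2.94 CPM in gof against 16.6 CPM in control cells (−2.16). Here 5 of 10 measured hypoxia response genes were also higher (Bnip3, Egln1, Egln3, Higd1a and Ddit4), with a median of 0.70. The gated gof cells carried less of the defining markers: Ttr, the thyroxine carrier of choroid plexus, had 20688 CPM in gof against 63777 CPM in control cells, Htr2c 295 CPM in gof against 2516 CPM in control cells, and Kcne2 24.8 CPM in gof against 551 CPM in control cells. Notum had 429 CPM in these gof cells against 1.04 CPM in control cells. Of 13 dissociation and heat shock genes 2 were higher and 5 lower in gof cells, and median UMIs per cell were 18441 in gof against 14913.5 in control. The part of these measures in the difference was not tested.

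The hem gate at E14.5, with 55 gof and 240 control cells, gave 9 enzymes higher (5.45% of 9853 genes) and 1, Aldoc, lower (9.45%), with a median of 0.68. Hk2 had 47.4 CPM in gof against 8.53 CPM in control cells (2.34, 1.43 to 3.26), Ldha 989 CPM in gof against 485 CPM in control cells (1.02), and Slc16a3 28.2 CPM in gof against 2.62 CPM in control cells (3.01, 1.71 to 4.27). Vegfa was higher too, at 36.4 CPM in gof against 16.7 CPM in control cells (1.08), and Hif1a was lower, at 82.9 CPM in gof against 133 CPM in control cells (−0.68). The highest ratio was that of Ndrg1, from 11 UMIs in gof and 1 UMI in control cells (3.05, 1.09 to 4.23), and the lowest was that of Hk1 (−1.31), which was not called. The hypoxia median was 0.38, but it was −0.28 under a stricter gate. Rspo2, a hem marker, had 791 CPM in gof against 2067 CPM in control cells; proliferation genes summed to 3258 CPM in gof against 2017 CPM in control cells, 8 of 13 dissociation and heat shock genes were lower in gof cells, and median UMIs were 18005 in gof against 10726.5 in control cells. Their part in the result was not tested.

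Radial glia showed less. Over all of them at E14.5 (1775 gof and 2069 control cells), Hk2 was the 1 member called higher (3.45% of 9200 genes), at 72.3 CPM in gof against 42.1 CPM in control cells, and Pfkfb3 and Ddit4 were lower (8.38%); the enzyme median was 0.14. Among tdTomato-positive radial glia (264 gof and 80 control cells) 8 members were higher (8.63% of 9690 genes) and 4 lower (12.5%), with an enzyme median of 0.27 and a hypoxia median of −0.44. Slc16a3 had 12.5 CPM in gof against 3.18 CPM in control cells from 57 and 4 UMIs (1.69, 0.20 to 3.21), Bnip3 40.6 CPM in gof against 16.7 CPM in control cells (1.23), Pdk1 32.5 CPM in gof against 13.5 CPM in control cells (1.21), Slc2a1 52.0 CPM in gof against 24.6 CPM in control cells (1.05) and Aldoa 187 CPM in gof against 107 CPM in control cells (0.80). Pfkfb3 had the lowest ratio, at 10.7 CPM in gof against 29.4 CPM in control cells (−1.37), and Aldoc had 131 CPM in gof against 244 CPM in control cells (−0.90). Within gof radial glia, tdTomato-positive cells were higher than cells with 0 UMIs for Aldoa, Slc2a1, Slc16a3, Pdk1 and Bnip3 (12.4% of 9391 genes) and lower for Aldoc (6.53%). Within control radial glia no member was called (2.98% of 9306 genes higher and 0.784% lower), where 80 tdTomato-positive cells limit what can be seen. Proliferation genes had a median of −0.40 in gof over control tdTomato-positive radial glia, with 2 of 12 lower, and 5 of 10 dissociation and heat shock genes were lower; their part was not tested.

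In each gate of neurons and their precursors, more members were called lower than higher in gof cells, as was so for all measured genes. In intermediate progenitors (1017 gof and 1283 control cells) no enzyme was called, and Pdk3, Pfkfb3, P4ha1 and Egln3 were lower (10.6% of 9298 genes) and no member was higher (4.79%). In projection neurons (1204 gof and 1145 control cells) Bnip3, Vegfa and Ddit4 were lower with Pfkp and Pfkfb3 (6.94% of 9096 genes), and Hk2 and Aldoc were higher (3.75%); Ddit4 had 53.0 CPM in gof against 106 CPM in control cells (−0.99) and Hk2 19.3 CPM in gof against 9.87 CPM in control cells (0.90). In Cajal-Retzius cells (161 gof and 526 control cells) Ddit4 had 52.9 CPM in gof against 149 CPM in control cells (−1.48), Vegfa 12.4 CPM in gof against 29.6 CPM in control cells (−1.19), and P4ha1, Eno2 and Pdk3 were lower too (17.3% of 9934 genes). Pfkp, Slc16a1 and Ankrd37 were higher there (10.6%). The Cajal-Retzius gate held gof cells with less Trp73, at 44.7 CPM in gof against 279.6 CPM in control cells. In the other neurons (151 gof and 123 control cells) Hk1, Pfkp, Pfkfb3, Vegfa and Mif were lower (11.1% of 9757 genes) and no member was higher (10.7%). The enzyme medians in the first 3 of these types lay between −0.02 and 0.11. In the other neurons the enzymes summed to 2681 CPM (2591 to 2773) in gof against 2740 CPM (2644 to 2839) in control cells. Held-back markers of that gate were at least 2-fold above all other cells for 2 of 4 in gof against 4 of 4 in control. Proliferation genes were higher in the gof cells of the gates of intermediate progenitors (8 of 12, median 0.81) and projection neurons (8 of 11, median 1.30), and dissociation and heat shock genes were lower in 6 of 9, 4 of 9 and 7 of 10 cases in intermediate progenitors, projection neurons and Cajal-Retzius cells. Their part in these values was not tested.

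**Figure D5:**
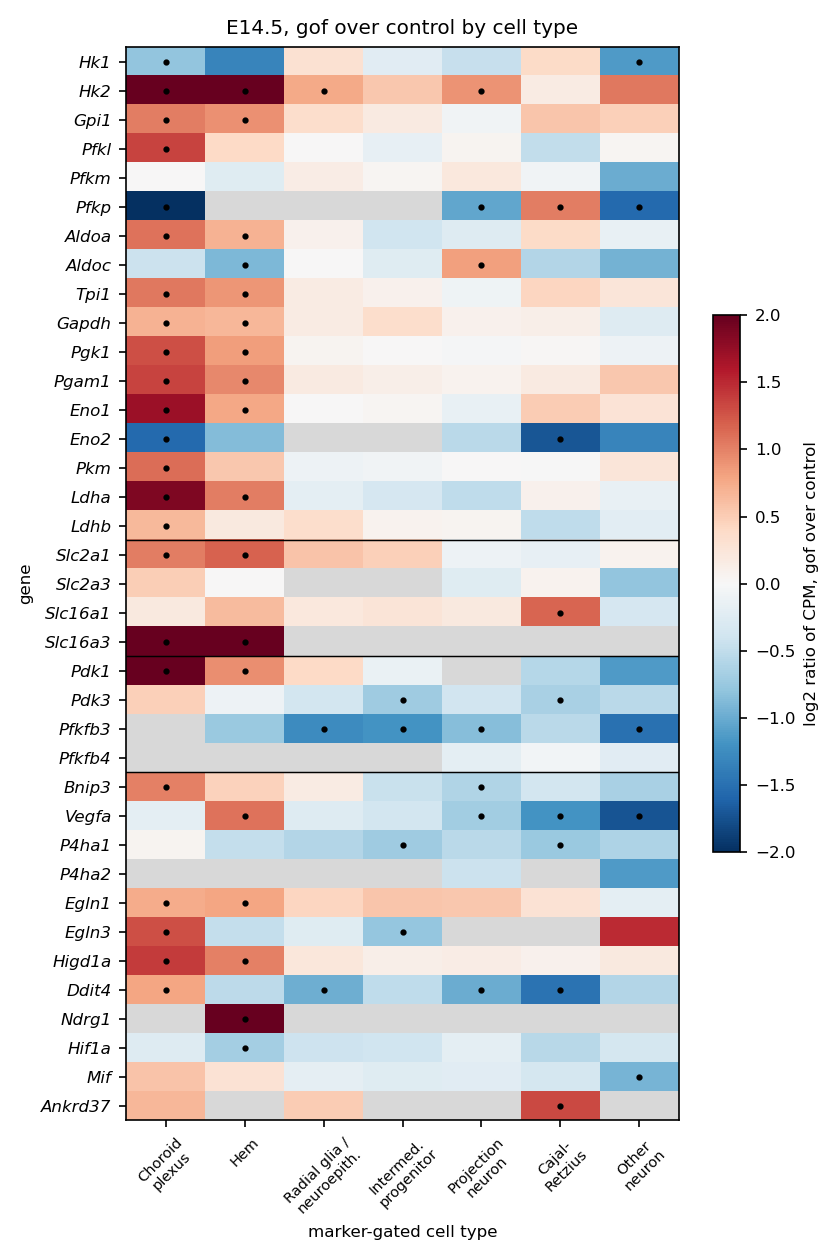
Log2 ratio of CPM, gof over control, of the 37 genes (rows, with lines between enzymes, transporters, regulators and hypoxia response genes) in 7 marker-gated types at E14.5 (columns). Colours stop at −2 and 2, grey marks genes under 10 CPM in both libraries, and dots mark genes that differ by at least 1.5-fold with separate intervals. Dots on red squares mark 12 of 17 enzymes in the choroid plexus column and 9 of 17 in the hem column, and 3 enzymes in the choroid plexus column and Aldoc in the hem column have dots on blue.

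At E11.5, types differed little in enzymes with 1 exception. In the mesenchymal or meningeal gate (1168 gof and 704 control cells) 4 enzymes were lower (13.9% of 8742 genes), with a median of −0.42 beside −0.18 for all genes: Pgk1 had 162 CPM in gof against 335 CPM in control cells (−1.04), and Gapdh, Pkm and Ldhb were lower by smaller ratios. Slc2a1 was lower there too, at 17.8 CPM in gof against 31.1 CPM in control cells, and Vegfa was higher, at 51.7 CPM in gof against 32.5 CPM in control cells (4.99% of genes higher). Proliferation genes were also lower in that gate, 6 of 12 called with a median of −0.62, and 6 of 13 dissociation and heat shock genes were higher. The 17 enzymes summed to 3765 CPM in its gof cells against 5700 CPM in its control cells. The median of this sum per cell was 3487 CPM in gof against 4289.5 CPM in control. In the 45 tdTomato-positive control cells of the gate the enzymes summed to 7681 CPM, at a median of 27719 UMIs per cell. In the 14 tdTomato-positive gof cells they summed to 4501 CPM, at a median of 10634.5 UMIs. Among cells of the gate with 0 tdTomato UMIs they summed to 3744 CPM in gof against 4813 CPM in control. Median UMIs per cell of the gate were 5970.5 in gof against 8109.5 in control. The part of these measures was not tested. In the E11.5 hem gate (241 gof and 513 control cells) no enzyme was called, and Slc16a1, Pdk1, Bnip3, Vegfa and Ddit4 were higher (3.51% of 8512 genes), none being lower (3.45%); Bnip3 had 40.6 CPM in gof against 22.5 CPM in control cells (0.83).

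Between ages the median log2 ratio of all genes, E14.5 over E11.5, was 0.59 in gof and 0.62 in control. The ratios and calls below are not corrected for those medians. A member called higher can therefore lie near the median of all genes, and a member that was not called can lie below it. At E14.5, 50.5% of genes in gof and 51.7% in control were called higher than at E11.5, and 8.88% in gof and 7.76% in control lower. The enzymes had medians of −0.13 in gof and −0.36 in control. Aldoc had the largest age ratio of the set, at 114 CPM at E14.5 against 1.73 CPM at E11.5 in gof (5.40) and 121 CPM at E14.5 against 2.74 CPM at E11.5 in control (5.03). Pfkm, Pfkfb3, Egln3 and Ddit4 were also higher at E14.5 in both genotypes, and Aldoa, Slc16a3 and Higd1a were lower. Ddit4 had 54.0 CPM at E14.5 against 15.2 CPM at E11.5 in gof (1.76) and 97.0 CPM at E14.5 against 14.6 CPM at E11.5 in control (2.65). Hk2, Gapdh, Pgk1, Eno1, Ldhb and Slc2a1 were called lower at E14.5 in control but not in gof, Hk1, Vegfa and P4ha1 were called higher in control but not in gof, and Egln1 was called higher and Mif lower in gof but not in control. Dissociation and heat shock genes had a median of −0.01 in gof, with 1 of 10 higher and 1 lower, and of 1.07 in control, with 7 of 11 higher; their part in these values was not tested. Hk2 had 49.4 CPM at E14.5 against 54.0 CPM at E11.5 in gof, and 29.2 CPM at E14.5 against 62.7 CPM at E11.5 in control (−1.08). Whether the 2 age differences differ was not tested, and the pools held different numbers of embryos.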

How the data were processed

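Each of the 4 libraries was deposited by the authors as raw UMI counts, genes by barcodes. Cell Ranger 7.1.0 made them per the file headers, and mm10 was the build per the submitters' processing notes. The sources used here do not give the gene annotation. About 14400 cells were loaded for a target of 9000 per library, per the labels' protocols. The matrices held 6263 to 8677 barcodes and 59594082 to 113821989 UMIs per library, and the lowest barcode in each held 500 or 501 UMIs.

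Cells entered the analysis when 1000 genes or more were read and mitochondrial UMIs did not exceed 10%. Scrublet's own threshold called 0 doublets in both E11.5 libraries, 401 in E14.5 gof and 2 in E14.5 control, so it did not work in 3 libraries; the highest scores were removed instead, at 0.8% per 1000 barcodes (seed 1). Counts were summed over cells and scaled to CPM with Python 3.11.15, scipy 1.17.1, pandas 2.3.3 and scanpy 1.11.5. RNA free in the droplets was not removed. The call rule was tested on simulated sums with counting error only, so that test does not cover differences between pools, preparations or cells.

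Marker gates were applied in a fixed order with the non-neural gates first. Cells that passed several non-neural gates were left out of the types. Next came choroid plexus, Cajal-Retzius, GABAergic cells, intermediate progenitors and projection neurons, in that order. A cell took the first of these gates it passed, even where it also passed the hem or radial glia gate. Of the remaining cells, those that passed the general neuron gate together with the hem or radial glia gate were left out. Erythroid cells were those with at least 20% haemoglobin UMIs. The gates' thresholds and order were set after seeing the data. The members, lists and markers were chosen with earlier results of these data known. The text names every member called in a comparison of gof with control, 12 preset members, the highest and lowest ratio within a type, and the 3 highest and lowest of the other pathway lists. Symbols of 67 features occur more than once; Aldoa is ENSMUSG00000030695, and the other Aldoa ID holds 0.132 to 0.593 CPM per library. Several glycolytic genes have near-identical pseudogenes, so the assignment of their reads is uncertain. Alternatives covered filters, pseudocounts, minimum levels, scaling, depth, the fold limit, tdTomato limits and gates.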

Additional observations from a re-analysis of the deposited data

Results flagged for a closer look

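6 members were called in opposite directions in different marker-gated types at E14.5, each value being the log2 ratio of CPM in gof over control. With 1 library per group the difference between types was not tested.

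Pfkp, the platelet-type phosphofructokinase, was higher in gof Cajal-Retzius cells (1.025) and lower in gof projection neurons (−1.033), other neurons (−1.556) and the choroid plexus gate (−2.155, from 7 UMIs in gof and 80 in control). Aldoc, the aldolase of radial glia, was lower in the gof hem gate (−0.8954) and higher in gof projection neurons (0.8257).

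Bnip3, the mitophagy receptor, was higher in the gof choroid plexus gate (1.006) and lower in gof projection neurons (−0.6014). Vegfa was higher in the gof hem gate (1.079) and lower in gof projection neurons (−0.694), Cajal-Retzius cells (−1.193) and other neurons (−1.72). Egln3, an oxygen-sensing prolyl hydroxylase that is itself a HIF target, was higher in the gof choroid plexus gate (1.295) and lower in gof intermediate progenitors (−0.7785). Ddit4 was higher in the gof choroid plexus gate (0.7934) and lower in gof radial glia (−0.98), projection neurons (−0.9876) and Cajal-Retzius cells (−1.477).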

How the results depend on the processing

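No paired analysis was possible because each group is 1 library, and for the same reason no replicate could be left out. In E14.5 tdTomato-positive cells the enzyme median, 0.49 as reported, ran from 0.3449 to 0.5928 over 17 alternatives, and the hypoxia median from −0.2263 to 0.1256. The enzyme median ran from 0.9234 to 1.137 in the E14.5 choroid plexus gate and from 0.5311 to 0.7592 in the E14.5 hem gate. Of all counts of called members, 190 stayed within 1.5 times and 60 did not; of the medians, 236 stayed and 18 moved. Of the values of single members, 876 kept their call, 160 lost it, 78 gained one, 1 moved, and none turned its direction while called.

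Counts of members called moved as follows; the cause was not tested unless the setting itself gives it. Without any filter on barcodes, members higher numbered 0 at E11.5 over all cells and 2 in E14.5 radial glia. With a floor of 2000 genes and a ceiling of 5% mitochondrial UMIs, E11.5 gave 2 higher in 0-UMI cells and 4 higher and 1 lower in tdTomato-positive cells. With cells of 5000 to 20000 UMIs, members lower numbered 2 in E11.5 tdTomato-positive cells, 0 in the choroid plexus gate, 1 in the hem gate and 8 in E14.5 tdTomato-positive cells, and members higher numbered 2 in radial glia and 1 in E14.5 0-UMI cells. At a limit of 2-fold, none was higher in any E11.5 set, and at E14.5 there were 7 higher and 0 lower in hem, 0 higher and 1 lower in radial glia, 1 lower in 0-UMI cells, 2 higher and 2 lower in tdTomato-positive cells, and 0 higher and 1 lower over all cells. With haemoglobin, mitochondrial, ribosomal and tdTomato UMIs left out of the totals, 2 were higher in radial glia, 1 in 0-UMI cells and 2 over all cells at E14.5. With the mean of CPM per cell, 1 was lower in E11.5 tdTomato-positive cells and in the choroid plexus gate, 5 were lower in hem, 3 higher in radial glia and 2 higher over all E14.5 cells. At a minimum of 50 CPM, none was higher in the E11.5 sets or over all E14.5 cells, 0 were lower in choroid plexus and 1 in radial glia, and E14.5 tdTomato-positive cells had 7 higher and 1 lower. With no minimum, or with a pseudocount of 0.1 CPM, 2 were higher in radial glia and 2 over all E14.5 cells. With a pseudocount of 10 CPM, E11.5 gave 0 higher in 0-UMI cells, 1 in tdTomato-positive cells and 0 over all cells, and E14.5 tdTomato-positive cells gave 7 higher and 2 lower. Median-ratio scaling gave 2 higher in E11.5 0-UMI cells, and 3 in radial glia, 1 in 0-UMI cells and 3 over all cells at E14.5. A stricter gate left 1 lower in choroid plexus. With tdTomato at 1 UMI or more, E14.5 gave 4 higher and 2 lower, and at 5 or more, E11.5 gave 1 higher and 1 lower. Restricting radial glia to tdTomato-positive cells gave 8 higher and 4 lower, and leaving the non-neural gates out of the E11.5 tdTomato-positive cells, added after seeing the data, gave 1 lower.

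The moved medians were these. For enzymes over all E11.5 cells it was −0.05416 outside the non-neural gates, −0.06687 by per-cell means and 0.00638 under median-ratio scaling. For enzymes over all E14.5 cells it was 0.02928 at 5000 to 20000 UMIs, 0.03827 by per-cell means and 0.1883 under median-ratio scaling, which also gave −0.00284 in E11.5 0-UMI cells, 0.0195 in E14.5 0-UMI cells and 0.2281 in radial glia. It was 0.3449 in E14.5 tdTomato-positive cells at 1 UMI and 0.2685 in tdTomato-positive radial glia. For hypoxia response genes it was −0.2946 at 5000 to 20000 UMIs and −0.1334 under median-ratio scaling over all E14.5 cells, 0.1906 over all E11.5 cells under that scaling, −0.2263 in E14.5 tdTomato-positive cells at 50 CPM, −0.2516 in E14.5 0-UMI cells with a pseudocount of 10 CPM, −0.2813 in hem under the stricter gate and −0.4363 in tdTomato-positive radial glia.

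Depth limits the gates of 55 to 95 gof cells and genes near 10 CPM.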

Other observations

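The E14.5 gof tdTomato-positive cells could be split by Notum, a feedback target of Wnt signalling; the split was chosen after its values were seen, and it compares cells of 1 library. Cells with 2 or more Notum UMIs (434) summed to 5237 CPM of the 17 enzymes, against 4171 CPM in cells with 0 Notum UMIs (502), and to 1345 CPM of the 12 hypoxia response genes, against 1453 CPM in cells with 0 Notum UMIs. Ldha had 705 CPM in Notum-positive cells against 428.5 CPM in cells with 0 Notum UMIs (log2 ratio 0.72), Pdk1 45.3 CPM in Notum-positive cells against 13.96 CPM in cells with 0 (1.63), Slc16a3 18.4 CPM in Notum-positive cells against 5.22 CPM in cells with 0 (1.64), and Bnip3 56.9 CPM in Notum-positive cells against 24.0 CPM in cells with 0 (1.21). Gpi1, Aldoa, Pgam1, Eno1 and P4ha1 were higher too, where 11.2% of all genes were higher. Aldoc had 33.3 CPM in Notum-positive cells against 111 CPM in cells with 0 Notum UMIs (−1.70), and Hk1 and Pfkm were lower as well, where 16.7% of genes were lower. The enzyme median was 0.44 and the hypoxia median 0.20, beside −0.07 for all genes. Proliferation genes summed to 966 CPM in Notum-positive cells against 1822 CPM in cells with 0 Notum UMIs. Of other lists, 11 of 12 proliferation genes were lower, 4 of 10 dissociation and heat shock genes were higher (Junb, Ier3, Atf3 and Socs3), 4 of 11 integrated stress response genes were higher and 2 lower, and 8 of 22 other hypoxia and HIF genes were higher and 1 lower. The choroid plexus gate made up 14.7% of Notum-positive cells against 3.98% of cells with 0 Notum UMIs, Cajal-Retzius cells 6.91% of Notum-positive cells against 16.7% of cells with 0, and projection neurons 2.76% of Notum-positive cells against 14.54% of cells with 0. The part of these measures in the difference was not tested.

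At E11.5, 63 Notum-positive gof cells summed to 4638 CPM of the enzymes against 5112 CPM in 187 gof cells with 0 Notum UMIs; no member was called higher, and Slc2a3 was lower. Whether the 2 ages differ was not tested.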
